A study of Bombyx mori with 4 samples.

Results

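The loci described here are those that differed between silkworm prothoracic glands held with prothoracicotropic hormone (PTTH) and without it after 1 h, and whose confidence limits overlapped after 3 h. Of 14622 loci in the deposited table, 8547 had a mean of at least 1 FPKM (sequenced fragments per kilobase of a transcript and per size of the library) over the 4 libraries and are called the tested loci. A locus was taken when the ratio of (FPKM + 1) in PTTH 1 h over control 1 h was at least 1.5-fold in either direction, the authors' confidence limits of the 1 h libraries did not overlap, and those of the 3 h libraries did. This rule found 35 loci, 9 higher and 26 lower with the hormone at 1 h. The loci were thus chosen by their 1 h values and by the overlap at 3 h, so both are given as descriptions, without a test. The loci are called H1 to H9 (higher) and L1 to L26 (lower), in order of the size of the 1 h ratio.

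The 4 groups were glands with 10 nM recombinant PTTH for 1 h, glands without it for 1 h, glands with 10 nM PTTH for 3 h and glands without it for 3 h. All came from Bombyx mori larvae, a racial hybrid from Mulberry Farms, at day 4 of the fifth instar, and all were first kept for 30 min in Grace's insect medium. Each group was 1 library, made by combining 2 RNA preparations from 12 to 18 larvae each. The glands of a pair were split between medium with and without PTTH, so the libraries of 1 time point came from the same larvae, and those of the other time point from different ones. A change with time and a difference between larvae cannot be told apart. With 1 library per group there was no replicate check, and the limits are read here as counting error only.

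The prothoracic gland makes ecdysteroids, the steroid hormones that drive moulting and metamorphosis. PTTH is a brain peptide that acts on this gland through the receptor tyrosine kinase Torso and a kinase cascade that includes ERK, and it stimulates ecdysteroid synthesis and the transcription of genes of that pathway. Early transcription in response to a peptide hormone often includes genes whose transcripts rise and decay quickly. The deposited identifiers carry no gene names, and 0 of the 14622 identifiers matched a reference list of 18210 genes, so none of these loci can be given a role. For the same reason the tissue could not be checked against its marker genes. In bulk RNA of this kind, fewer cells of a type and less RNA per cell cannot be told apart.

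The number of sequenced fragments behind each value was read from the limits, taking the upper limit as 2 Poisson standard deviations above the value. These implied fragments came to 8.36e+06 over all loci with PTTH and 8.13e+06 without it at 1 h, and to 1.03e+07 with PTTH and 9.12e+06 without it at 3 h. A tested locus had a median of 248 to 268 of them, depending on the library. A listed value of 0 may be a failed estimate, since a locus at nscaf2674 615917 to 617309 was listed at 0 in control 3 h and at 13889 FPKM or more in the other 3 libraries. Counting standard errors (SE) of the log2 ratios come from the implied fragments. No fold is given where a value rests on under 4 of them.

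Most loci that differed by these limits at 1 h still had intervals apart at 3 h, and the loci described here are the remainder. Of all tested loci, 0.995% were higher at 1 h by this definition and 0.866% were lower, which is 85 and 74 loci. At 3 h the intervals overlapped in 9 of the 85 higher loci, or 10.6%, and in 26 of the 74 lower ones, or 35.1%. Over all tested loci the 3 h intervals overlapped in 52.5%. The loci with overlap at 3 h are therefore 0.105% (higher) and 0.304% (lower) of the tested loci. When the 1 h ratios were centred on their median over all tested loci, the split was 13 higher and 20 lower.

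The loci with overlapping 3 h intervals had lower levels and fewer fragments, by their medians, than those with intervals apart. Mean FPKM over the 4 libraries had a median of 2.82 in the 9 higher loci, against 47.8 in the other 76 loci higher at 1 h and 14.6 in all tested loci. In the 26 lower loci the median was 3.18 FPKM, against 12.6 FPKM in the other 48 loci lower at 1 h. The shallower 3 h library held a median of 16.5 implied fragments in the 9 higher loci, against 327 in the other 76, and 50.3 in the 26 lower loci, against 159 in the other 48. Fewer fragments give relatively wider intervals, and among tested loci with a mean under 5 FPKM the 3 h intervals overlapped in 78.9%. The part of depth in the overlap was not tested locus by locus.

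**Figure D1:**
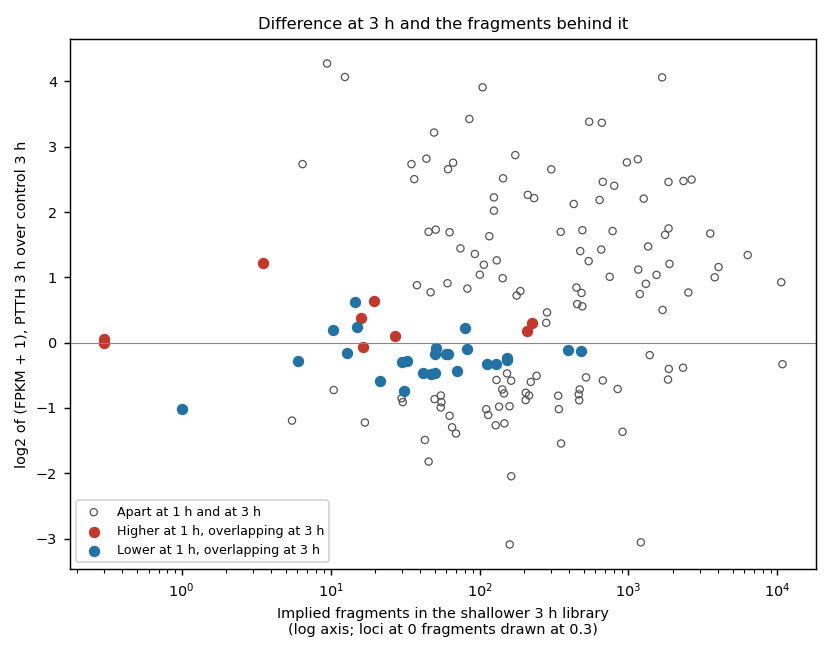
Each point is a locus that differed at 1 h, with the implied fragments of its shallower 3 h library on the x axis (log scale) and its log2 ratio of (FPKM + 1), PTTH 3 h over control 3 h, on the y axis. The 9 red and 26 blue loci have overlapping 3 h intervals and median depths of 16.5 and 50.3 fragments, with points at 0 fragments drawn at 0.3. Open circles, whose 3 h intervals are apart, have medians of 327 (higher) and 159 (lower), and the ranges overlap, as L20 had 480 fragments.

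At 3 h the ratios ranged from past 0 to about as large as at 1 h. H1 and H8, at or near 0 in both 3 h libraries, hold no 3 h ratio to speak of, and 7 of the 9 higher loci had at least 1 implied fragment in each 3 h library. The log2 ratio of the 9 higher loci had a median of 0.18 at 3 h, between -0.07 and 1.22, against a median of 0.84 at 1 h. Its 3 h median was 0.31 in the 7 loci with fragments in both libraries, and 0.36 over the 9 after centring on the median of tested loci. For the 26 lower loci the median was -0.25 at 3 h, between -1.02 and 0.62, against -0.77 at 1 h. All tested loci had a median of -0.19 at 3 h, so the lower loci stood close to the table as a whole. The 3 h log2 ratio was under 0.32 in size in 4 of these 7 higher loci and in 16 of the 26 lower ones. It was at least 1.5-fold in size, in either direction, in 2 higher and 4 lower ones, and L6, among these 4, was above control at 3 h. The direction of the 3 h ratio was that of 1 h in 6 of the 7 higher loci, where 33% of tested loci had a 3 h ratio above 0. It was that of 1 h in 7 of the 7 after the same centring, which adds the same amount to each. It was that of 1 h in 22 of the 26 lower loci, where 66.9% of tested loci had a 3 h ratio below 0, but in 14 of the 26 after centring and 20 of the 26 with upper-quartile scaling.

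In part of the loci the listed ratios differed between the times by more than 2 counting SE, a difference that the rule favours. A change of the log2 ratio between 3 h and 1 h, towards or past 0, exceeded 2 counting SE in 4 of the 9 higher loci (H3, H4, H5 and H9). It did so in 14 of the 26 lower ones (L1, L3 to L7, L11, L12, L16, L17, L20 to L22 and L26). In 3 higher and 11 lower loci the change was within 2 counting SE, and in H1, H8 and L2 a value listed at 0 left it without an SE. The 1 h limits and the overlap at 3 h that chose the loci both favour such changes, so nothing is read from these counts. In 4 higher and 16 lower loci the range of 2 counting SE around the 3 h ratio still reached 1.5-fold in the direction of 1 h.

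**Figure D2:**
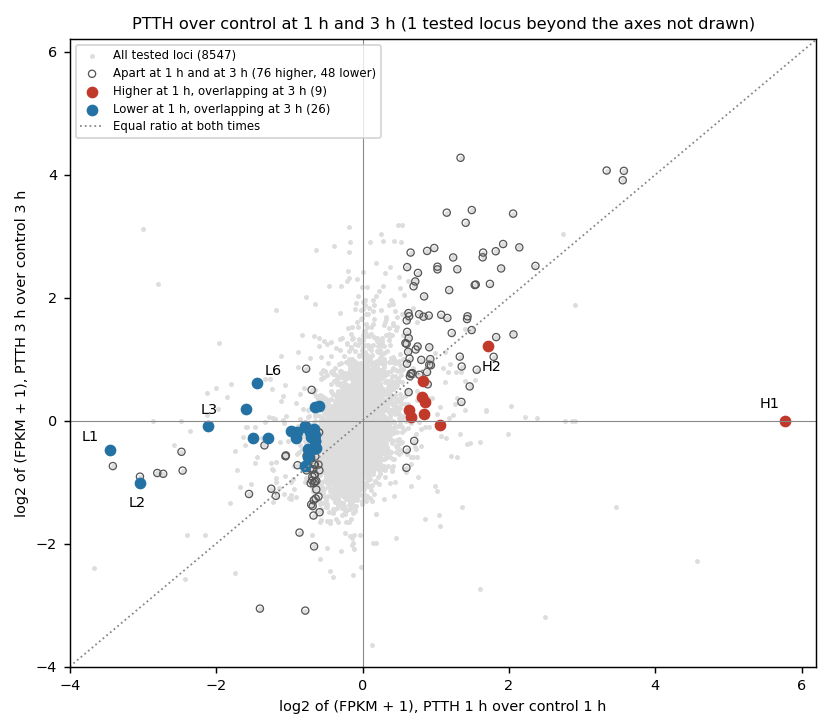
The x axis is the log2 ratio of (FPKM + 1), PTTH 1 h over control 1 h, and the y axis the same for PTTH 3 h over control 3 h, with 1 point per tested locus and 1 locus beyond the axes not drawn. The 9 red and 26 blue loci run from L1 at -3.45 to H1 at 5.77 on the x axis and from L2 at -1.02 to H2 at 1.22 on the y axis, whereas the open circles are loci with intervals apart at both times.

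Among the higher loci the one with the largest ratio was seen almost wholly in 1 library. H1, XLOC_009641 at nscaf2964 454368 to 456443, had 64.0 FPKM (54.4 to 73.6) with PTTH and 0.193 FPKM (0 to 0.740) without it at 1 h, with a listed 0 in each of the 3 h libraries. There were 177 implied fragments behind the first of these values and 0.495 behind the second. The log2 ratio at 1 h was 5.77 ± 0.35 (counting SE), an error that is only a rough guide with so few fragments in control 1 h. The 3 h overlap is that of values listed at 0. In all, 2 of the 9 higher loci and 1 of the 26 lower ones were listed at 0 in at least 1 library, as were 0.667% of all tested loci.

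H8, at nscaf3008 1217847 to 1222219, was likewise seen at 1 h and nearly absent at 3 h, but in both kinds of gland. It had 5.11 FPKM (limits 3.94 to 6.28) in PTTH 1 h and 2.86 FPKM (1.93 to 3.79) in control 1 h. At 3 h its level was 0.0365 FPKM with PTTH (0.504 implied fragments) and listed at 0 without it. The PTTH glands stood 1.79-fold above control at 1 h, and no fold is given at 3 h.

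In H5 and H9 the PTTH library was higher at 1 h and all values were lower at 3 h. H5, at nscaf2902 3699499 to 3700525, had 6.29 FPKM with PTTH and 3.08 FPKM without it at 1 h, then 1.71 FPKM with PTTH and 1.51 FPKM without it at 3 h. The 1 h difference was 2.04-fold, and PTTH 3 h lay 3.69-fold below PTTH 1 h. H9, at nscaf2829 1274579 to 1280843, was the most abundant of the higher loci, with 40.1 FPKM (36.5 to 43.7) in PTTH 1 h and 25.5 FPKM (22.5 to 28.4) in control 1 h. At 3 h it had 19.0 FPKM with PTTH and 16.7 FPKM without. Its log2 ratio was 0.18 ± 0.13 at 3 h, against 0.63 ± 0.10 at 1 h, each with at least 208 implied fragments per library. Both 3 h values lay below both 1 h values in 4 of the 9 higher loci, H1, H5, H8 and H9.

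H4 was higher at 3 h than at 1 h in both kinds of gland. This locus, XLOC_002983 at nscaf2589 2742531 to 2744448, had 5.48 FPKM with PTTH and 2.59 FPKM without it at 1 h, then 9.35 FPKM with PTTH and 7.36 FPKM without it at 3 h. The intervals of the 3 h libraries, 8.26 to 10.4 FPKM and 6.38 to 8.35 FPKM, barely overlapped, and both lay above both 1 h intervals. The log2 ratio was 0.31 ± 0.11 at 3 h, against 0.85 ± 0.15 at 1 h. Control glands were 2.84-fold higher at 3 h than at 1 h, and PTTH glands 1.71-fold.

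H3, at nscaf2564 329206 to 330831, was the one higher locus with a ratio below 0 at 3 h. It had 4.73 FPKM with PTTH and 1.75 FPKM without it at 1 h, then 2.31 FPKM with PTTH and 2.48 FPKM without it at 3 h. PTTH 1 h was the highest value, at 2.71-fold over its control, which had 11.0 implied fragments. Against the 3 h limits of 1.17 to 3.45 FPKM with PTTH and 1.28 to 3.68 FPKM without, the PTTH 1 h interval of 3.05 to 6.42 FPKM still overlapped.

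In the remaining higher loci, H2, H6 and H7, PTTH glands stood above control at both times and the values were low. H2, at nscaf2948 2544306 to 2546857, had 2.93 FPKM with PTTH and 0.193 FPKM without it at 1 h, then 4.08 FPKM with PTTH and 1.19 FPKM without it at 3 h. Its log2 ratio was 1.22 ± 0.54 at 3 h, against 1.72 ± 0.50 at 1 h, and no library held over 12.0 implied fragments. Both the ratio and its error were large at 3 h. Control 1 h had the same value and limits as in H1, from 0.495 implied fragments. The 1 h error is therefore only a rough guide here too. H6, at nscaf3072 2474956 to 2477477, had 3.51 FPKM with PTTH and 1.54 FPKM without it at 1 h, then 3.40 FPKM with PTTH and 1.81 FPKM without it at 3 h. The differences were 1.87-fold at 3 h and 2.28-fold at 1 h, so this locus kept most of its ratio. H7, at nscaf2801 606314 to 608661, had 2.77 FPKM with PTTH and 1.14 FPKM without it at 1 h, then 1.81 FPKM with PTTH and 1.15 FPKM without it at 3 h. It was 1.57-fold higher at 3 h and 2.43-fold higher at 1 h. For H2, H6 and H7 the change of the ratio was within 2 counting SE.

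**Figure D3:**
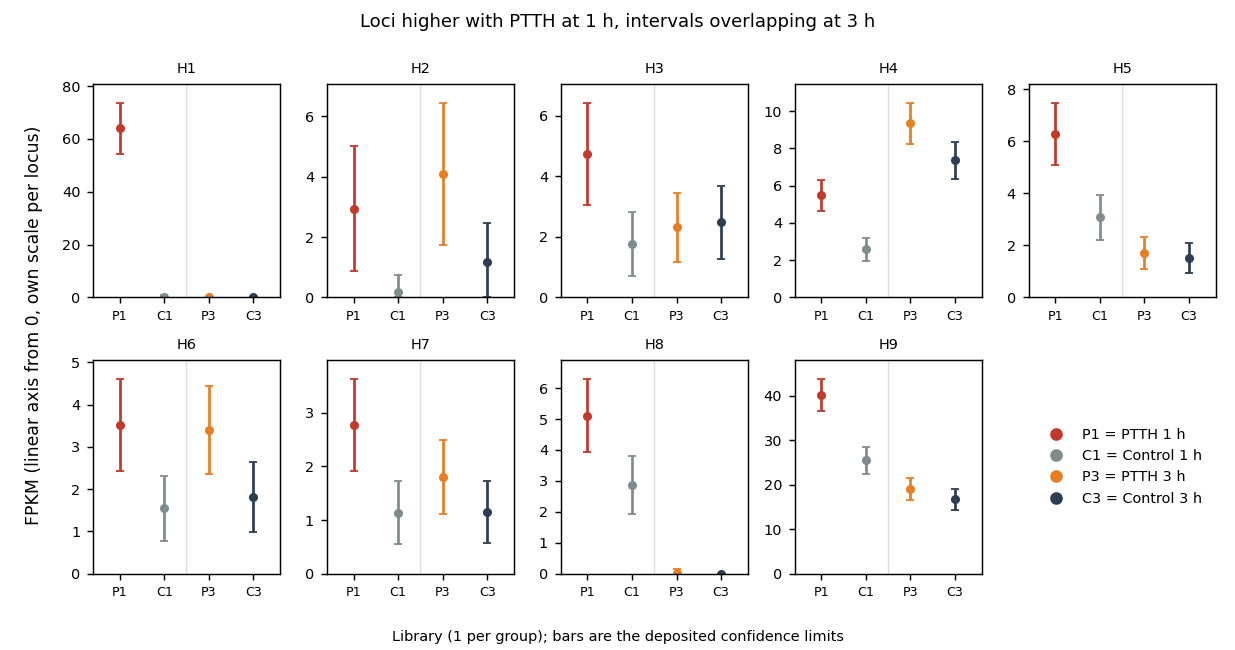
FPKM of the 9 loci that were higher with PTTH at 1 h, 1 panel per locus, with 1 point per library and the deposited confidence limits as bars, on linear axes from 0 with their own scale. H1 has signal in PTTH 1 h at 64.0 FPKM and next to none elsewhere, H8 has none to speak of at 3 h, and H4 is highest at 3 h.

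The lower loci included a few with large differences at 1 h. L1, XLOC_002860 at nscaf2575 4345299 to 4350998, had 0.628 FPKM with PTTH and 16.7 FPKM without it at 1 h, then 3.30 FPKM (2.34 to 4.26) with PTTH and 5.01 FPKM (3.78 to 6.24) without it at 3 h. PTTH 1 h lay below both 3 h intervals and control 1 h above both. The 1 h difference was 26.7-fold. PTTH 3 h stood 5.26-fold above PTTH 1 h, and control 3 h stood 3.34-fold below control 1 h. PTTH 1 h held 8.49 implied fragments, so the folds that use it are rough. At 3 h the log2 ratio was -0.48 ± 0.22 and still in the direction of 1 h.

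L3 and L5 had the same shape at lower levels, with control 1 h above and PTTH 1 h below both 3 h libraries and intervals apart. L3, at nscaf2830 395556 to 397023, had 0.359 FPKM with PTTH and 4.88 FPKM without it at 1 h, a 13.6-fold difference, and 2.71 FPKM with PTTH and 2.96 FPKM without it at 3 h. Its log2 ratio was -0.10 ± 0.17 at 3 h, against -2.11 ± 0.16 at 1 h. L5, at nscaf2868 594724 to 602231, had 0.162 FPKM with PTTH and 2.27 FPKM without it at 1 h, a 14.0-fold difference, and 0.781 FPKM with PTTH and 1.16 FPKM without it at 3 h. The log2 ratio was -0.28 ± 0.16 at 3 h, against -1.49 ± 0.14 at 1 h.

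L2, at nscaf2623 112764 to 114393, was listed at 0 in PTTH 1 h, against 7.25 FPKM (3.88 to 10.6) in control 1 h from 18.5 implied fragments. It had 0.339 FPKM in PTTH 3 h and 1.71 FPKM in control 3 h, from 1.00 and 4.99 implied fragments. Its 3 h log2 ratio of -1.02 ± 0.55 was the most negative of the 35 loci, and its intervals overlap at a handful of fragments. L4, at nscaf2912 420796 to 424638, had 1.07 FPKM with PTTH and 5.25 FPKM without it at 1 h, then 4.15 FPKM with PTTH and 3.51 FPKM without it at 3 h, with at most 13.0 implied fragments in any library. L6, at nscaf2204 2979080 to 2994760, had 0.549 FPKM with PTTH and 3.20 FPKM without it at 1 h, then 3.60 FPKM with PTTH and 1.995 FPKM without it at 3 h. In L6 the PTTH library was 5.84-fold below its control at 1 h and above it at 3 h by a log2 ratio of 0.62 ± 0.33, with intervals of 2.27 to 4.92 FPKM and 0.949 to 3.04 FPKM that overlapped.

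L7, at nscaf3045 2112459 to 2113239, the shortest of the lower loci with a span of 780 bases, had 0.771 FPKM with PTTH and 3.33 FPKM without it at 1 h, then 0.499 FPKM with PTTH and 0.830 FPKM without it at 3 h. Control 1 h alone stood apart from the other 3 libraries, 4.01-fold above control 3 h. L8, at nscaf3063 3026183 to 3028385, had 0.406 FPKM with PTTH and 1.76 FPKM without it at 1 h, then 1.22 FPKM with PTTH and 1.49 FPKM without it at 3 h. There PTTH 1 h was the low value, from 4.01 implied fragments. L1 to L7 were at least 2-fold lower on the scale of (FPKM + 1), and the other 19 lower loci were between 1.5-fold and 2-fold.

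Most loci that were over 10-fold lower at 1 h had the same order of the 4 libraries, whether or not their 3 h intervals overlapped. Their 3 h levels varied widely. By their listed values there were 10 such loci with intervals apart at 1 h, counting L2 at 0 and the neighbour of L1 with 3.50 implied fragments in PTTH 1 h, and 4 of them were L1, L2, L3 and L5. Set against control 1 h as 100%, the values with at least 4 implied fragments stood at 2.74% to 7.36% in PTTH 1 h (8 loci, median 5.27%) and 6.13% to 55.6% in PTTH 3 h (9 loci, median 21.3%). In control 3 h they stood at 23.6% to 66.4% (10 loci, median 43.5%). In 9 of the 10 the order from high to low was control 1 h, control 3 h, PTTH 3 h, PTTH 1 h, an order seen in 1.79% of all tested loci. It was seen in 2 of the other 10 loci that were at least 2-fold lower with intervals apart at 1 h. Of the 26 lower loci, 13 had it, L1, L2, L3 and L5 among them, so it is not particular to large differences. The choice of the 10 loci over 10-fold lower, made after their values were seen, fixes the 1 h part of that order. So wide a gap also favours control 1 h as the highest and PTTH 1 h as the lowest value. Nothing is therefore read from the 1.79%. The part left is control 3 h above PTTH 3 h, and 66.9% of all tested loci had a 3 h ratio below 0. They lie on 9 scaffolds, and the genes they belong to are not named in the table.

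**Figure D4:**
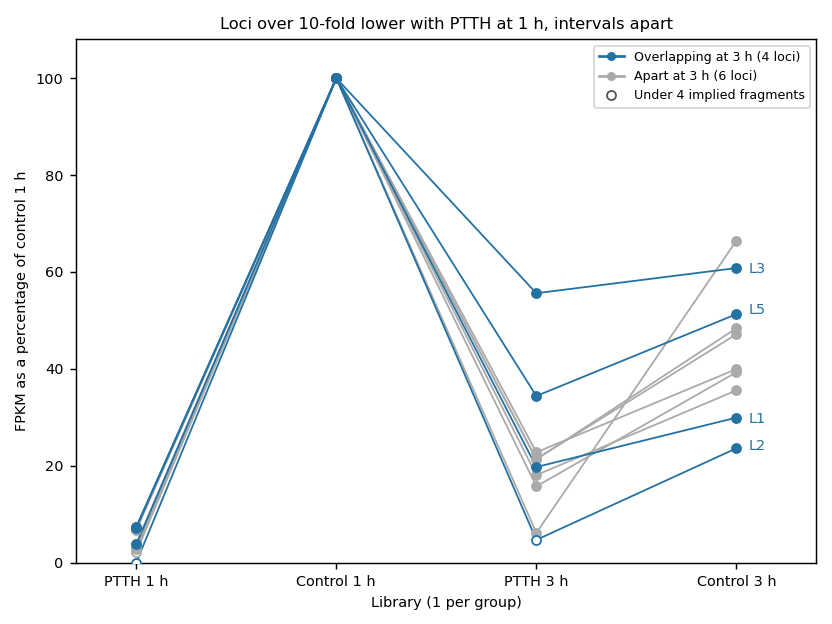
FPKM of the 10 loci over 10-fold lower with PTTH at 1 h, as a percentage of control 1 h (y axis), in the 4 libraries (x axis), with 1 line per locus, open points for values under 4 implied fragments and no error bars. Blue lines are L1, L2, L3 and L5, grey lines the 6 loci whose 3 h intervals were apart, and in both sets control 3 h is above PTTH 3 h in every locus drawn.

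The locus next to L1 belongs to that set. It lies 19068 bases further on, at nscaf2575 4370066 to 4374241, and had 0.260 FPKM with PTTH and 12.4 FPKM without it at 1 h, then 2.24 FPKM with PTTH and 4.41 FPKM without it at 3 h. Its 3 h intervals, 1.45 to 3.03 FPKM with PTTH and 3.25 to 5.57 FPKM without, were just apart, which is why it is not among the 26. Its log2 ratio was -0.74 ± 0.23 at 3 h, against -3.41 ± 0.19 at 1 h, close to L1 at both times.

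Of the lower loci, 10 averaged 5 FPKM or more, and 9 of them were under 2-fold at 1 h. L12, at nscaf1898 10641071 to 10648272, was the most abundant, at 8.35 FPKM (6.72 to 9.99) with PTTH and 15.2 FPKM (12.9 to 17.5) without it at 1 h, then 30.2 FPKM with PTTH and 32.5 FPKM without it at 3 h. It was higher at 3 h than at 1 h in both kinds of gland, 3.61-fold with PTTH and 2.14-fold without. The log2 ratio was -0.11 ± 0.10 at 3 h, against -0.79 ± 0.16 at 1 h. L10, XLOC_010902 at nscaf3005 2000096 to 2001756, had 8.92 FPKM with PTTH and 17.4 FPKM without it at 1 h, then 15.8 FPKM with PTTH and 18.1 FPKM without it at 3 h. L20, at nscaf2993 5269264 to 5276792, was among the best measured, at 7.09 FPKM with PTTH and 11.8 FPKM without it at 1 h, then 10.7 FPKM with PTTH and 11.8 FPKM without it at 3 h. In L10 and L20 control glands were level between the times, at 1.04-fold and 0.999-fold of 1 h, and PTTH 1 h was the one low library. The PTTH 1 h interval was apart from both 3 h intervals in L20, whereas in L10 its upper limit of 12.0 FPKM reached past the PTTH 3 h lower limit of 11.7 FPKM. PTTH 1 h alone was apart in L23 too, at nscaf2853 971876 to 985734, which had 4.54 FPKM with PTTH and 7.68 FPKM without it at 1 h, then 7.47 FPKM with PTTH and 9.61 FPKM without it at 3 h.

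In other loci of this level the control 1 h library was the high one. L21, at nscaf2529 5034785 to 5039570, had 9.56 FPKM with PTTH and 15.6 FPKM without it at 1 h, then 8.17 FPKM with PTTH and 9.83 FPKM without it at 3 h. The interval of control 1 h, 13.7 to 17.6 FPKM, lay above the other 3, which overlapped one another. L17, at nscaf1681 287338 to 289504, had 9.61 FPKM with PTTH and 16.2 FPKM without it at 1 h, then 10.9 FPKM with PTTH and 13.3 FPKM without it at 3 h. L18, at nscaf1898 11220968 to 11228077, had 6.03 FPKM with PTTH and 10.4 FPKM without it at 1 h, then 7.84 FPKM with PTTH and 8.93 FPKM without it at 3 h. In L17 and L18 both 3 h values lay between the 1 h values, and neither 1 h library was apart from both of them.

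In L13 and L15 the difference was almost as large at 3 h as at 1 h. L13, at nscaf2511 5814190 to 5819584, had 7.71 FPKM with PTTH and 14.1 FPKM without it at 1 h, then 5.10 FPKM with PTTH and 9.13 FPKM without it at 3 h. That is 1.79-fold lower at 3 h and 1.82-fold lower at 1 h, with 3 h limits of 3.27 to 6.93 FPKM and 6.61 to 11.7 FPKM that overlap by a little. L15, at nscaf2822 1338742 to 1340391, had 6.59 FPKM with PTTH and 11.7 FPKM without it at 1 h, then 3.24 FPKM with PTTH and 5.38 FPKM without it at 3 h, or 1.66-fold lower at 3 h and 1.77-fold lower at 1 h. In these loci both kinds of gland had less at 3 h than at 1 h, and the ratio between them stayed within 1 counting SE of its 1 h value.

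In L14, L19, L24 and L25, at lower levels, the ratios at the 2 times also lay within 2 counting SE of each other. L14, at nscaf2883 2481352 to 2483744, had 2.23 FPKM with PTTH and 4.42 FPKM without it at 1 h, then 1.38 FPKM with PTTH and 2.29 FPKM without it at 3 h. L19, at nscaf2993 662911 to 689592, had 2.73 FPKM with PTTH and 4.95 FPKM without it at 1 h, then 1.13 FPKM with PTTH and 1.94 FPKM without it at 3 h. Another locus is listed at the same position as L19, at 0.325 to 0.612 FPKM, so fragments may have been divided between them. L24, at nscaf2887 996849 to 1001705, had 3.09 FPKM with PTTH and 5.40 FPKM without it at 1 h, then 3.24 FPKM with PTTH and 4.31 FPKM without it at 3 h. L25, at nscaf2855 4263971 to 4272184, had 2.01 FPKM with PTTH and 3.69 FPKM without it at 1 h, then 2.19 FPKM with PTTH and 3.32 FPKM without it at 3 h. PTTH glands stood below control at both times in all 4 of these loci, by 1.33-fold to 1.72-fold at 3 h and by 1.75-fold to 1.98-fold at 1 h.

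L9, L11 and L16 showed a graded order of the libraries by their listed values, though neither 1 h interval was apart from both 3 h intervals. L9, at nscaf3043 2270 to 5464, had 3.05 FPKM with PTTH and 6.62 FPKM without it at 1 h, then 3.95 FPKM with PTTH and 5.05 FPKM without it at 3 h. L11, at nscaf3093 230704 to 237090, had 1.67 FPKM with PTTH and 3.63 FPKM without it at 1 h, then 2.98 FPKM with PTTH and 3.22 FPKM without it at 3 h. L16, at nscaf3058 3730120 to 3737741, had 1.12 FPKM with PTTH and 2.48 FPKM without it at 1 h, then 1.29 FPKM with PTTH and 1.60 FPKM without it at 3 h. In all 3 the order from high to low was control 1 h, control 3 h, PTTH 3 h, PTTH 1 h. They share it with other lower loci, L17, L18 and L20 included, as it held in 13 of the 26. The 3 h log2 ratios were -0.29 ± 0.29 in L9, -0.08 ± 0.21 in L11 and -0.18 ± 0.17 in L16. The step between the 3 h libraries thus lay within 2 counting SE.

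L22 and L26 had ratios on opposite sides of 0 at the 2 times, as L4 and L6 did. At 3 h each of these ratios lay within 2 counting SE of 0, with 0.19 ± 0.48 in L4 and 0.23 ± 0.20 in L26. L22, at nscaf3015 4044144 to 4047972, had 0.816 FPKM with PTTH and 1.85 FPKM without it at 1 h, then 1.46 FPKM with PTTH and 1.11 FPKM without it at 3 h. Its log2 ratio was 0.22 ± 0.12 at 3 h, against -0.65 ± 0.12 at 1 h, from at least 60.6 implied fragments in each library. L26, at nscaf2204 882806 to 886241, had 0.821 FPKM with PTTH and 1.74 FPKM without it at 1 h, then 0.901 FPKM with PTTH and 0.619 FPKM without it at 3 h. In L26 control 1 h was the one high library, 2.81-fold above control 3 h, though its interval overlapped that of PTTH 3 h.

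**Figure D5:**
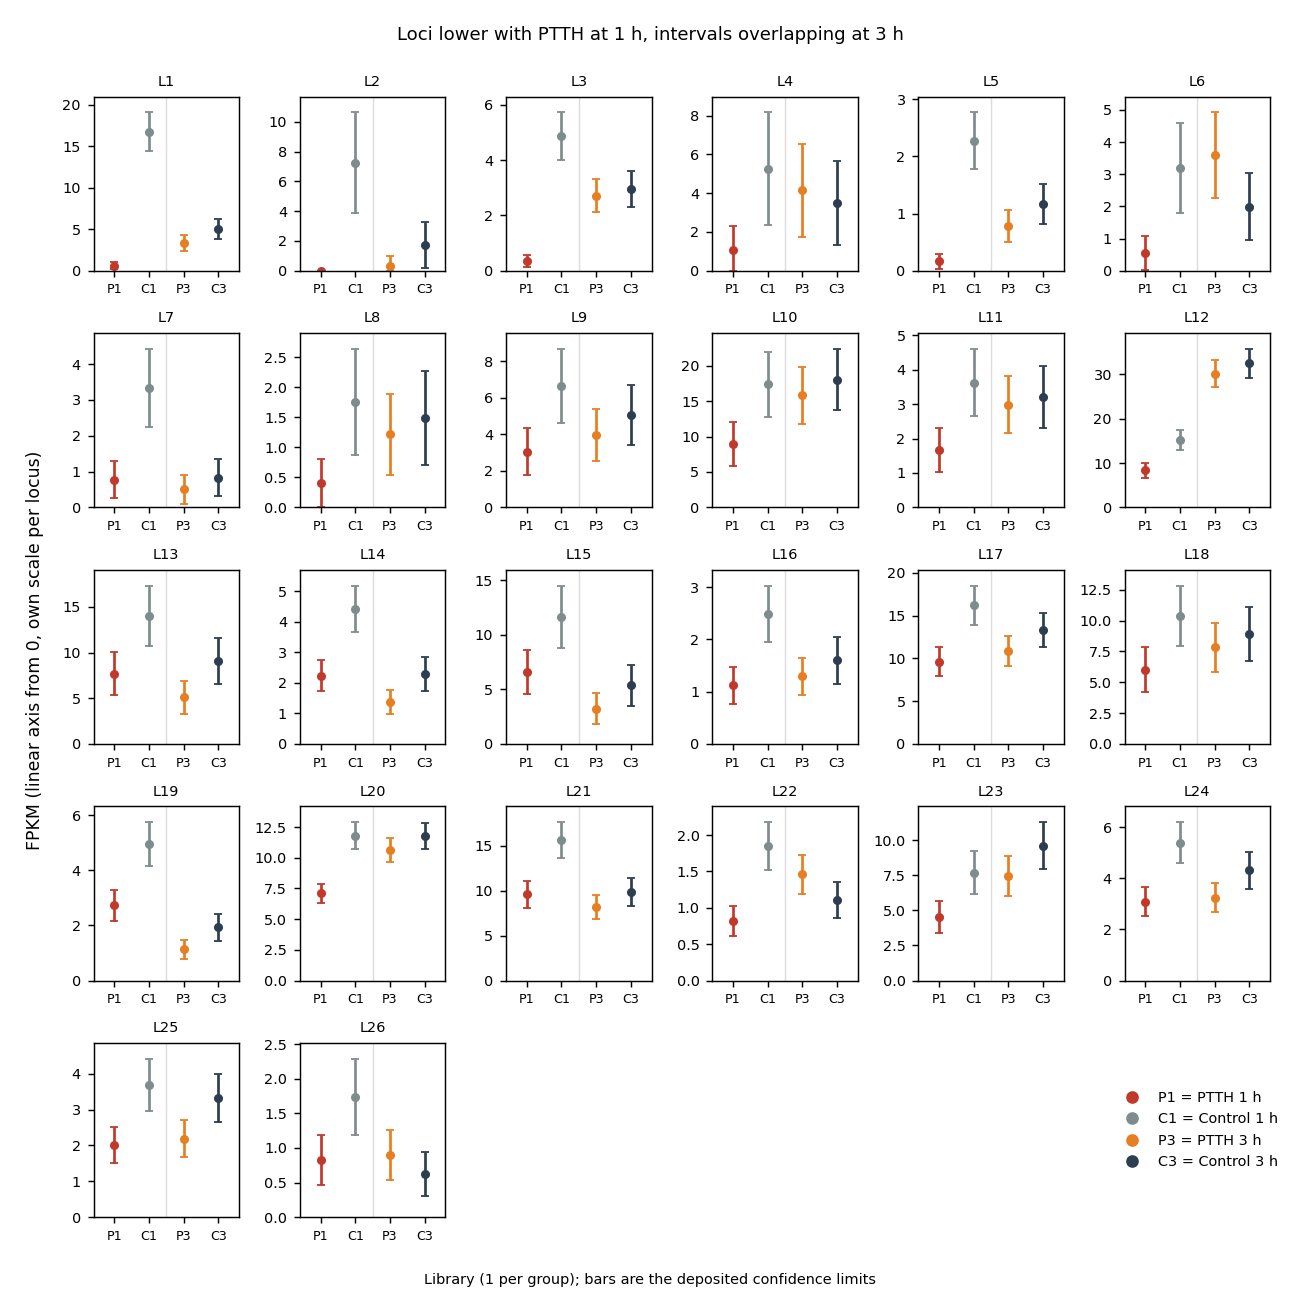
FPKM of the 26 loci that were lower with PTTH at 1 h, drawn as for the higher loci, with 1 point per library, the deposited confidence limits as bars and an own linear scale from 0 in each panel. Control 1 h is the highest point in 22 panels and PTTH 1 h the lowest in 19, and the 3 h intervals overlap in each by the rule.

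Which of the 1 h libraries stood away from the 3 h libraries differed among the loci. In the 26 lower loci, control 1 h alone was apart from both 3 h intervals in 6 (L2, L7, L14, L15, L19 and L21) and PTTH 1 h alone in 2 (L20 and L23). Both were apart in 4 (L1, L3, L5 and L12) and neither in 14. Control 1 h was the highest of the 4 libraries in 22 of 26, where this held for 25% of all tested loci, and PTTH 1 h the lowest in 19, where it held for 27%. The rule favours both, so nothing is read from these shares. In the 9 higher loci, PTTH 1 h alone was apart from both 3 h intervals in 2 (H1 and H5), both 1 h libraries in 3 (H4, H8 and H9) and neither in 4.

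In most lower loci the control library was lower and the PTTH library higher at 3 h than at 1 h. Control 3 h lay below control 1 h in 23 of 26, against 43.2% of all tested loci, and PTTH 3 h above PTTH 1 h in 20 of 26, against 46.6%. Both held in 17 loci, and in 15 both 3 h values lay between the 1 h values. In 6 lower loci both kinds of gland had less at 3 h, and in 3 both had more (L10, L12 and L23). Among the 9 higher loci, PTTH 3 h lay below PTTH 1 h in 7, against 53.4% of all tested loci, and control 3 h above control 1 h in 5, against 56.7%. These comparisons over time share the 1 h libraries with the rule and are descriptions.

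None of the 35 loci was next to another of them among the tested loci. The 9 higher loci lay on 9 scaffolds and the 26 lower ones on 23. Lower loci shared nscaf1898, nscaf2204 and nscaf2993, with 25, 61 and 49 tested loci between those of a scaffold. Of 68 tested neighbours of the 35 loci, 4 also passed the 1 h limits, each in the direction of its neighbour, where 1.86% of all tested loci passed in either direction, and all 4 had intervals apart at 3 h. Besides the neighbour of L1, these were 1 each beside H7, L17 and L20. The one beside H7, at nscaf2801 597999 to 599981, ends 6333 bases before it and had 11.1 FPKM with PTTH and 3.83 FPKM without it at 1 h, then 6.92 FPKM with PTTH and 2.85 FPKM without it at 3 h. Both H7 and this locus had more with PTTH than without at both times, and H7 had at most 41.6 implied fragments in a library. Beside L20, 3784 bases further on at nscaf2993 5280576 to 5284025, a locus with 2.99 FPKM in PTTH 1 h and 5.42 FPKM in control 1 h had a log2 ratio of -0.91 ± 0.23 at 3 h, where L20 had -0.13 ± 0.09. The one beside L17, 69451 bases further on at nscaf1681 358955 to 361642, had 177 FPKM with PTTH and 279 FPKM without it at 1 h, then 144 FPKM with PTTH and 267 FPKM without it at 3 h. The other tested neighbour of L17 ends 1507 bases before it and was higher with PTTH, though under 1.5-fold at 1 h. It had 158 FPKM with PTTH and 122 FPKM without it at 1 h, then 229 FPKM with PTTH and 80.0 FPKM without it at 3 h.

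The span of the loci on the scaffold, which the rule did not use, was 1026 to 6264 bases in the 9 higher loci with a median of 2347, against 2063 in the other 76 higher loci. In the 26 lower loci it was 780 to 26681 bases with a median of 4820.5, against 3676.5 in the other 48 and 4524 in all tested loci.

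At the 1.5-fold limit the values ran on without a gap. Just inside it were H9 and H8 at 1.55-fold and 1.58-fold of (FPKM + 1), and just outside, meeting the other conditions, were nscaf3045 1250903 to 1259496 at 1.49-fold and nscaf2575 1942432 to 1947527 at 1.44-fold. On the lower side L26 and L25, at 1.504-fold and 1.56-fold, were just inside. There, nscaf3026 1591977 to 1595136 and nscaf3003 3916849 to 3918226, at 1.49-fold and 1.48-fold, were just outside.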

How the data were processed

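RNA sequencing of 4 libraries, 1 per group, was read from 1 table of 14622 loci. Per the file headers, the authors deposited FPKM and confidence limits (lower, upper) per library. The submitters' processing notes name CASAVA 1.8.0, SAMtools and TopHat and give no roles. Cuffdiff appears in the table's own name. Not given in the sources used here are the build and annotation, the kind of limit, how libraries were scaled to each other and whether starts count from 0 or 1. Coordinates are those of the table.

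Ratios are on the log2(FPKM + 1) scale, where changes of low loci are understated. Plain folds are ratios of FPKM. No test was made. The authors' ratio columns were not used. Alternatives changed the pseudocount, the level and ratio limits, the scaling and the 3 h condition. Among values of 0.3 to 10 implied fragments, 88.4% to 94.4% per library were multiples of 0.5 within 0.02. The selection step was tested on simulated data with counting noise only and with differences placed in loci averaging 5 FPKM or more. Most of the 35 loci average less, so that check does not cover them. The loci, the rule and the comparisons were chosen with earlier results of these data known. Of the rule for naming loci, at most 2 identifiers per direction were kept, those with the largest 1 h ratio among loci averaging 5 FPKM or more. All 35 loci are described, so none was picked. Python 3.11.15, numpy 2.4.6, pandas 2.3.3 and matplotlib 3.10.9 were used.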

Additional observations from a re-analysis of the deposited data

Results flagged for a closer look

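In 5 of the 35 loci the PTTH ratios at 1 h and 3 h pointed in opposite directions, and this difference was not tested, with 1 library per group. The 3 h ratio lay within 2 counting SE of 0 in each of the 5, so its sign is uncertain. From 1 h to 3 h the log2 ratio shifted by -1.13 for H3 at nscaf2564 329206 to 330831, which was higher at 1 h. For loci lower at 1 h the shift was 1.79 for L4 at nscaf2912 420796 to 424638 and 2.06 for L6 at nscaf2204 2979080 to 2994760. It was 0.87 for L22 at nscaf3015 4044144 to 4047972 and 0.82 for L26 at nscaf2204 882806 to 886241. The signs are those of the values as deposited: after centring on the median of tested loci, 0 of the 9 higher and 12 of the 26 lower loci had opposite directions, and the 3 h ratio of H3, -0.07 ± 0.35, turned positive.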

How the results depend on the processing

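The numbers of 9 higher and 26 lower loci depended on the size and level demanded. A pseudocount of 5 FPKM left 2 and 6, a mean of at least 5 FPKM left 3 and 10, and a 1 h ratio of at least 2-fold left 3 and 7, while with no minimum ratio there were 51 and 152. Limits widened to 1.5 times their distance from the value gave 16 lower loci, 14 of them among the 26, and also asking for a 3 h log2 ratio under 0.32 in size left 16. Chosen after seeing the data, at least 20 implied fragments in each 3 h library left 3 higher loci, and a difference between the times over 2 counting SE left 4 and 14. The other numbers stayed within 1.5 times, but in some settings the loci themselves changed more. The widened limits gave 6 higher loci, 4 of them among the 9. A 3 h ratio under 1.5-fold in place of overlap gave 12 higher loci, 7 of them among the 9. It gave 32 lower loci, 22 of them among the 26. The median 3 h log2 ratio of the lower loci was -0.065 after centring, against -0.25 as deposited. That of the higher loci was 0.36 after centring and 0.34 with a pseudocount of 0.1 FPKM, against 0.18. At least 20 implied fragments in each 3 h library were behind 3 of the 9 higher and 20 of the 26 lower loci, which limits the precision of the other 3 h ratios. No paired analysis was possible because each group has 1 library, and for the same reason no library could be left out.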
